A study of Salmo salar with 96 samples.

Results

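The adipose tissue described here came from 4 parr, the freshwater juvenile stage of Atlantic salmon, and its samples were chosen by their tissue label alone, so that the adipose fin was not among them. They were 4 of the 96 samples of the series. All 4 fish were immature, were 3 years old, were of the hatchery-maintained Neva strain and had a normal diet; fish 3 and 4 were female and fish 1 and 2 male. Adipose was set against the mean of 14 other tissues, each counted once: brain, eye, gill, heart, kidney, liver, muscle, pyloric caeca, skin, spleen, fin (adipose and tail fin of 1 fish), testis and immature ovary of parr, and blood of fry at 2212 °d. The parr tissues came from the same 4 Neva fish and, for some tissues, from 4 wild males of the Inarijoki river, also 3 years old, 2 of them mature. Testis came from the 2 immature Neva males and the 2 mature wild males. Both fin samples came from fish 1. Of the 4 hatchery fry that gave blood, 2 had a low-fat and 2 a normal diet. Adipose was sampled in hatchery fish alone, so nothing here bears on wild or mature fish.

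Expression was measured with a NanoString nCounter panel, in which each mRNA molecule bound by a pair of gene-specific probes is counted by its fluorescent barcode, without amplification. The panel held probes for 220 genes, most of them in several paralogs, since the salmon genome is duplicated and a paralog carries a final letter (cebpaa, cebpab). Values are normalized counts, the raw count times a factor per sample from 6 reference genes, and a mean of 20 was taken as background, as the study did. The genes were picked by the study for their links to maturation, fat and cell fate, and 2 probes are not comparable in level, so each gene was compared with itself across tissues. In bulk tissue, more of a transcript per cell and more cells that hold it cannot be told apart.

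Adipose tissue stores triglyceride in adipocytes, which arise from mesenchymal precursors. In mammals the C/EBP alpha and PPAR gamma transcription factors drive that differentiation and hold the adipocyte state, PPAR alpha governs fatty acid oxidation, and each PPAR binds DNA as a pair with an RXR. In salmon, fat reserves are tied to the decision to mature, and VGLL3, encoded at the main locus for age at maturity, restrains adipocyte differentiation in mice.

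The 4 adipose libraries held between 105191 and 253158 counts over the panel genes, within the range of 47598 to 949899 of the 72 other samples used, and their normalization factors lay between 0.476 and 1.13. Between pairs of adipose samples, Pearson's r of the log2 values across the tested genes was 0.897 to 0.971. The spiked positive controls of adipose of fish 1 summed to 5972 counts, against 50801 to 88136 in the other adipose samples and 14032 to 95545 in all other samples, so this library stood apart. Of the 8 adipocyte markers listed for the check, cebpa, klf15, pparg and leptin were on the panel. The 9 probes of cebpa, klf15 and pparg summed to 9759 to 19680 normalized counts in the adipose samples. As tissue means elsewhere they summed to 475 (blood) to 10400 (pyloric caeca). The leptin gene lepb1 was not in these sums. Its adipose mean was 8.08, under background and the lowest of the 15 tissues, and it was called lower. Most of the adipose sums came from cebpaa and cebpab, with adipose means of 5875 and 8714. Of the 9 probes, 6 had an adipose mean of 20 or more, while klf15d, pparga and ppargb were under it. In the test below, 5 were called higher and 1, klf15d, lower, against 18.9% and 32.3% of all genes tested. The same probes are described below, so this check is not separate from those results. Classical markers such as adiponectin and perilipin were not measured. The 2 myf5 probes (muscle precursors), the 4 growth hormone and gonadotropin beta probes (pituitary) and the fshr and lhr probes (gonad) were below background as means in adipose. Probes of the other lists were not all so low. In adipose, 3 of 11 neural probes, 6 of 8 bone and skin matrix probes and 1 of 2 immune cell probes had a mean of 20 or more. The neural list summed to 252 to 493 in adipose (14110 in brain), the matrix list to 6005 to 8193 (60550 in fin) and the immune list to 15.8 to 46.1 (203 in gill). The 4 liver probes, apoc1a, apoc1b, nr1i2 and spp2, summed to 25630 in fish 3, against 1115 to 10980 in the other adipose samples and 660400 in liver.

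Of 217 genes tested, 111 (51.2%) differed between adipose and the mean of the other tissues at an adjusted p under 0.05 (edgeR's quasi-likelihood test, Benjamini-Hochberg over all genes), and 129 had an unadjusted p under that value. This mean was taken on the log scale, so 1 very high tissue weighed little in it. Some genes called higher had an adipose level below the arithmetic mean of the other tissues, such as apoc1b (8695 against 54360) and col12a1c (350.6 against 387.2). Adipose was higher for 41 genes (18.9%) and lower for 70 (32.3%), and the median log2 fold change of all tested genes was -0.58. That split rested on the scaling. It was 49 higher and 39 lower with TMM scaling, 45 and 42 with 4 reference genes, 48 and 45 with DESeq2's own size factors, and 50 and 25 after subtraction of the negative controls. TMM moved the median of all genes by 0.38. The raised genes were little touched by this: 40 of 41 kept their direction and call under all 4 of these settings, the exception being akap11a. Of the 70 lowered genes, 19 did. In 34 of the 70 the adipose mean was under 20, and the negative controls themselves were lower in adipose, by a log2 difference of -0.65. The number of lowered genes also moved with single libraries: it was 37 without adipose of fish 1, 41 without fish 2, 45 without fish 4 and 76 without fish 3.

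**Figure D1:**
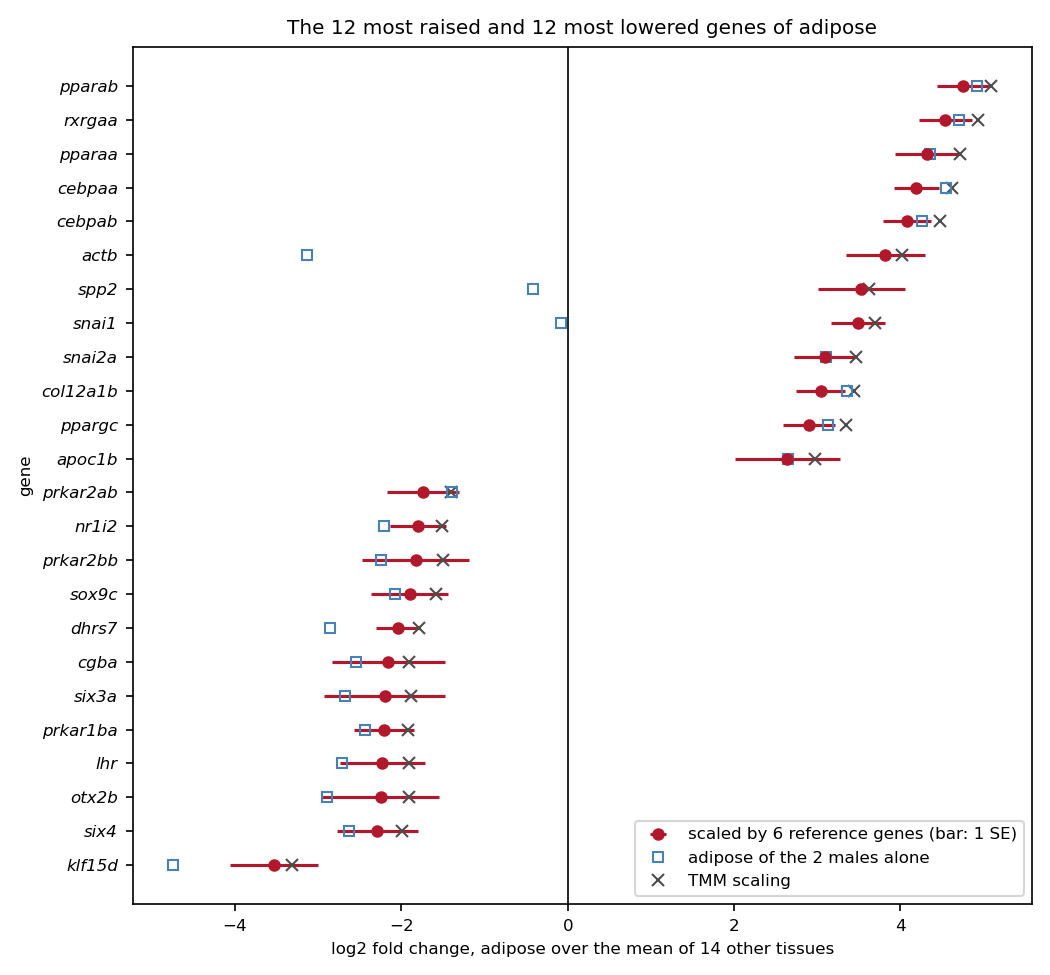
Log2 fold change of adipose over the mean of the 14 other tissues (x axis) for the 12 most raised genes with an adipose mean of 20 or more and the 12 most lowered with a mean of 20 or more elsewhere that passed the test (y axis), scaled by 6 reference genes (red, bar 1 SE), from the 2 males' adipose alone (blue squares) and with TMM scaling (crosses). The values for pparab run from 4.75 to 5.09 over these settings, while actb, spp2 and snai1 lie below 0 in the males alone.

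The C/EBP alpha paralogs were among the most raised genes. Transcripts of cebpaa, which encodes the terminal regulator of adipocyte differentiation, were at 8013, 7090, 3467 and 4929 normalized counts in adipose of fish 1 to 4, against a lowest, median and highest of 23.7, 429 and 3086 in the 72 other samples. It was the only gene of the panel whose adipose samples did not overlap with any other sample, and also the only one called above all 14 tissues (0.461% of the genes tested). The log2 fold change was 4.19 ± 0.27 (SE), or 18.2-fold (adjusted p = 1.2e-21). Its paralog cebpab was at 8017, 11731, 5633 and 9473 in adipose and at a median of 675 elsewhere, with 2 other samples, of pyloric caeca, reaching the lowest adipose value. Its log2 fold change was 4.08 ± 0.29 (adjusted p = 3.5e-20). Adipose was called above 13 tissues for cebpab. Against pyloric caeca (4849 ± 1279 (SD), n = 4) the log2 difference was 0.85 ± 0.57 (SE) with an adjusted p of 0.22. Within each fish, adipose exceeded the mean of the other tissues of that fish by 3.31 to 3.92 (log2) for cebpaa and by 3.22 to 4.00 for cebpab.

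Of the 6 C/EBP genes, cebpaa and cebpab were higher, 1 was lower and 3 were not called, against 18.9% higher and 32.3% lower over all genes, and their median log2 fold change was 0.05, against -0.58. cebpda and cebpdb, which act early in adipogenesis in mammalian cells, were at 1627 ± 135 and 1086 ± 226 in adipose (SD, n = 4 each), with log2 fold changes of 0.44 ± 0.43 (adjusted p = 0.38) and -0.34 ± 0.49 (adjusted p = 0.58) and highest means in muscle. With the fish as a block cebpda was called higher (log2 0.85, adjusted p = 0.018), and within each fish its adipose level exceeded the mean of the other tissues by 0.75 to 1.25. cebpba was at 265 ± 147 (SD, n = 4) in adipose and 2901 in kidney, with a log2 fold change of -0.94 ± 0.47 that missed the threshold (adjusted p = 0.085). The lowered cebpbb had an adipose mean of 4.75, under background (log2 -1.28 ± 0.51, adjusted p = 0.035), and its call was lost with TMM scaling and without adipose of fish 1 (adjusted p = 0.13).

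Of the PPAR alpha paralogs, pparaa and pparab had the largest fold changes of the receptor family. pparab was at 3038, 4445, 1987 and 3899 normalized counts in adipose, against a lowest, median and highest of 8.08, 152 and 2864 elsewhere, and rose by 4.75 ± 0.31 on the log2 scale, 27.0-fold (adjusted p = 1.2e-21). The highest other level was in liver (1482 ± 957 (SD), n = 7), and it was the single tissue against which adipose was not called higher (log2 difference 1.17 ± 0.54 (SE), adjusted p = 0.064). pparaa was at 2984, 3721, 1903 and 4495 in adipose and at 4.22, 207 and 2927 (lowest, median and highest) in the other samples. Its log2 fold change was 4.32 ± 0.38 (adjusted p = 4.6e-16). The next tissue was pyloric caeca (2206 ± 749 (SD), n = 4), from which adipose differed by 0.57 ± 0.75 (SE; adjusted p = 0.56). In both paralogs adipose had the highest mean of the 15 tissues. The remaining paralog, pparac, was under background in adipose (mean 2.99) and not called (adjusted p = 0.11).

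The PPAR gamma paralogs, named for the receptor that is the central switch of adipogenesis in mammals, split. ppargc was at 717, 571, 332 and 581 in adipose against a median of 53.2 elsewhere, with a log2 fold change of 2.90 ± 0.31 (adjusted p = 1.9e-12). Ovary (619 ± 237 (SD), n = 2) and pyloric caeca (601 ± 61.1 (SD), n = 4) were not separated from adipose (adjusted p = 0.86 and 0.88). pparga was listed at 1.13, 1.00, 40.0 and 2.41 in adipose, while pyloric caeca averaged 2450; its fold change of -1.69 ± 0.79 missed the threshold (adjusted p = 0.065). It passed without fish 3 (log2 -4.64, adjusted p = 0.0008) and with the fish as a block (-2.46, adjusted p = 0.0043), though the adipose values apart from fish 3 lay at background. ppargb was below background in adipose (mean 5.11) and not called (adjusted p = 0.34). Of the PPAR beta paralogs, pparb1a was higher (419 ± 79.3 (SD), n = 4; log2 0.89 ± 0.16 (SE), adjusted p = 5.2e-06) and pparb2b lower (48.8 ± 14.8 (SD), n = 4; log2 -1.23 ± 0.33 (SE), adjusted p = 0.0017). In all, 4 of the 8 PPAR genes were higher and 1 was lower, against 18.9% and 32.3% of all genes tested, with a median log2 fold change of 0.23. With the fish as a block 3 were lower.

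**Figure D2:**
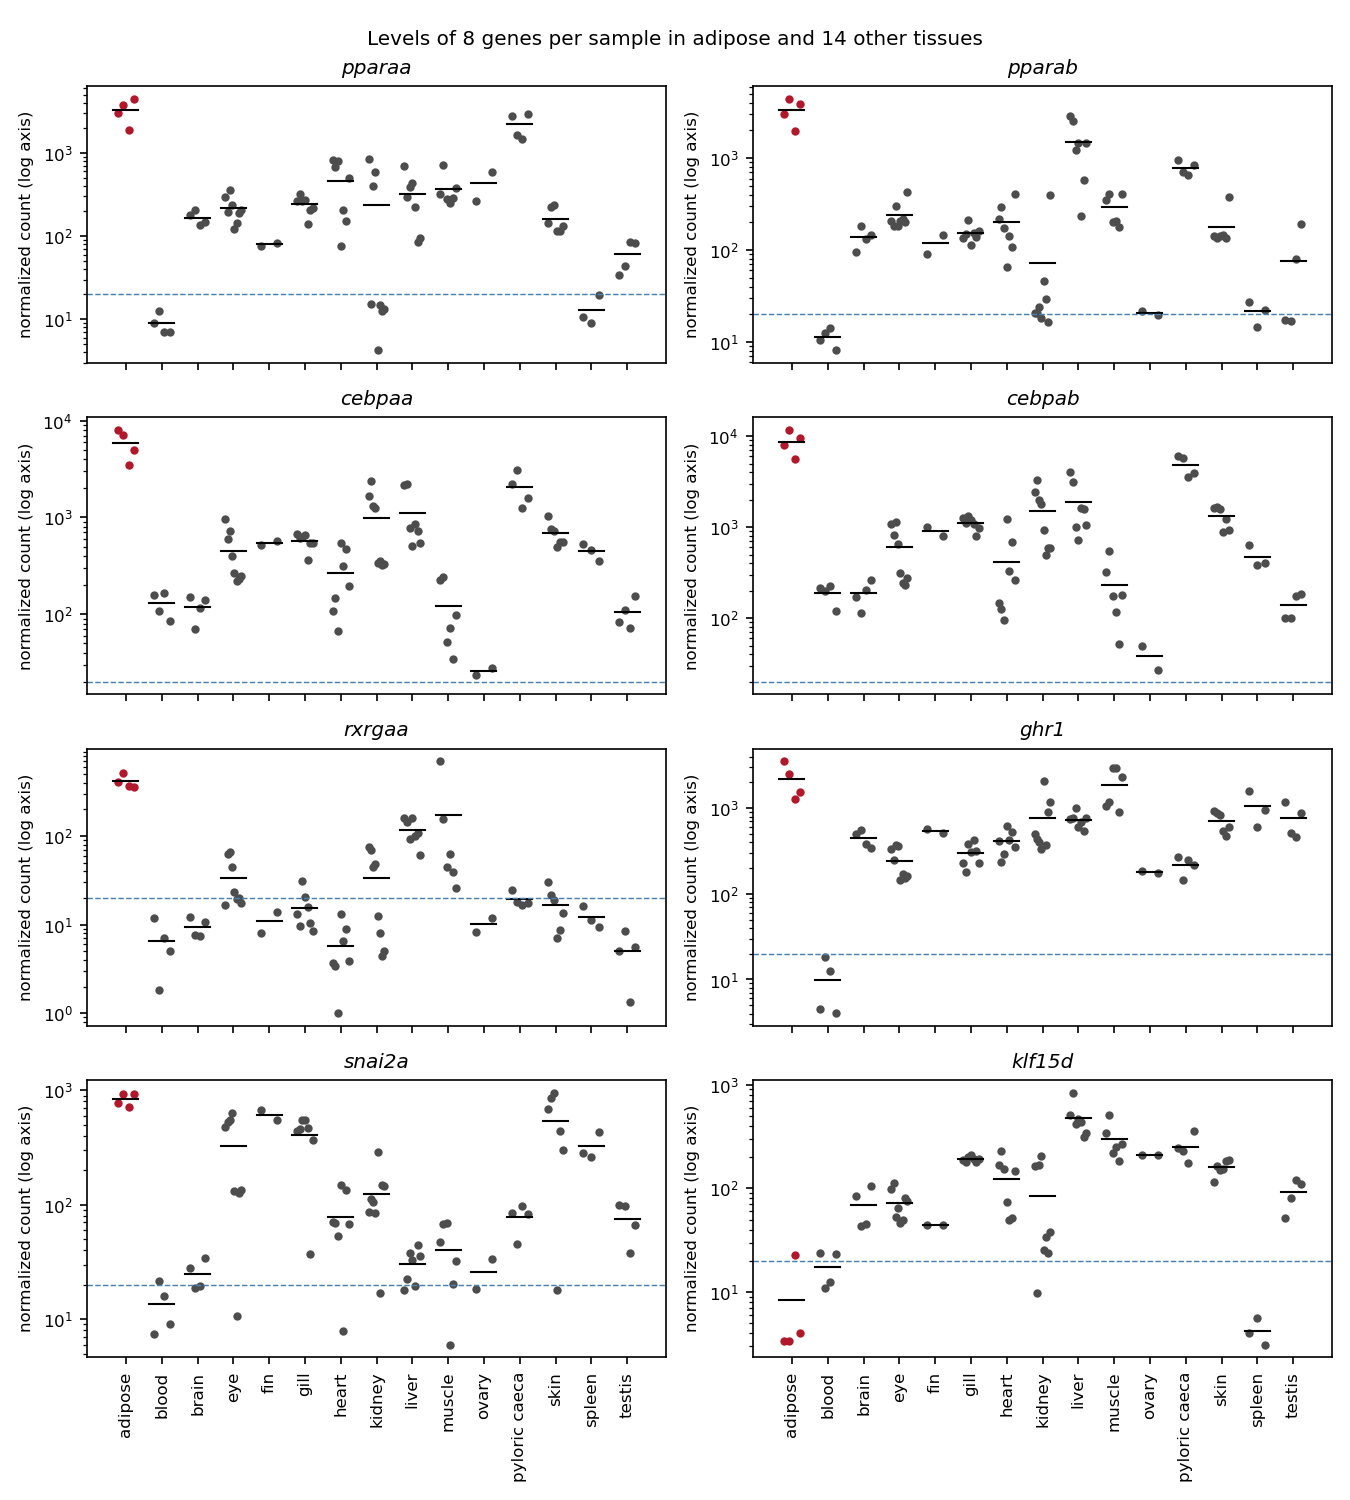
Normalized counts per sample (log axis) of 8 genes in adipose (red) and 14 other tissues (grey); short lines are tissue means and the dashed line marks 20. For cebpaa the 4 adipose samples sit between 3467 and 8013, above every other sample, whereas klf15d is at 3.33 to 22.5 in adipose.

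KLF15, a zinc finger factor that activates metabolic genes in fat, liver and muscle, had paralogs on both sides. klf15b was at 109, 139, 88.1 and 138 in adipose (log2 1.76 ± 0.28, adjusted p = 2.4e-07), below liver (322) and not separated from testis (204; adjusted p = 0.15). klf15c was at 69.9, 65.8, 17.4 and 28.1, against a median of 23.2 elsewhere (log2 1.18 ± 0.28, adjusted p = 0.00043). Its call was lost with the females' adipose alone (log2 0.19, adjusted p = 0.76). In klf15c both males were above both females, which held for 22 of all 220 genes (10%). The edgeR test of females against males did not call it (adjusted p = 0.11). klf15a was not called (101 ± 45.4 (SD), n = 4; adjusted p = 0.32). klf15d had the largest fall of all genes tested: 3.38, 3.33, 22.5 and 4.01 in adipose, against 3.11, 152 and 838 (lowest, median and highest) elsewhere. Its log2 fold change was -3.53 ± 0.53 (adjusted p = 5.8e-08). Of these 4 adipose values, 3 lie at the level of the negative controls, so the fold sets a detected level against background, and after subtraction of the negative controls the gene was no longer called (adjusted p = 1.0). Adipose was called below 12 tissues, the exceptions being blood (17.6) and spleen (4.25).

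**Figure D3:**
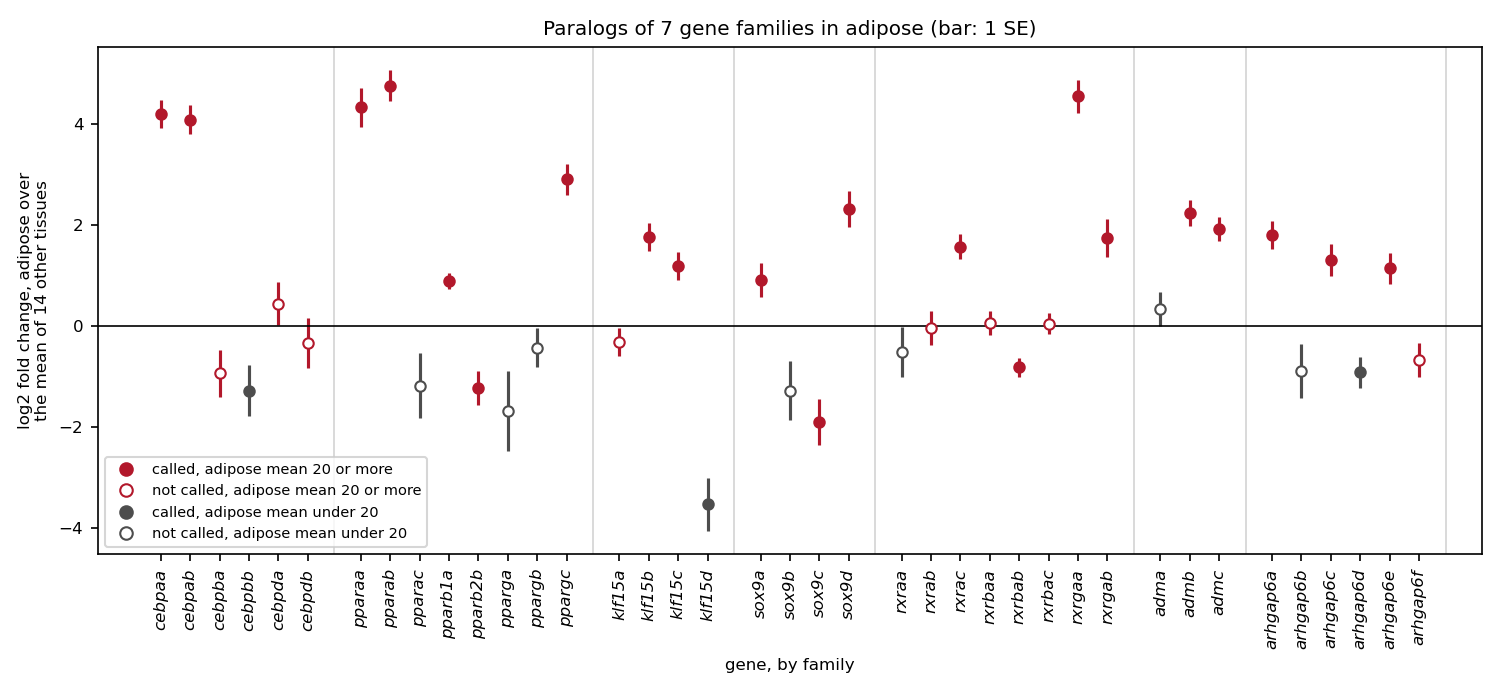
Log2 fold change of adipose over the mean of the 14 other tissues (y axis, bar 1 SE) for each paralog of 7 gene families, grouped by the panel's names (x axis). Filled points passed the test and grey points have an adipose mean under 20; klf15d at -3.53 and klf15b at 1.76 show how far paralogs of 1 family lay apart.

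The 1 gene of the hormone leptin on the panel, lepb1, was not detected above background in adipose. Its mean there was 8.08, the lowest of the 15 tissues (log2 -0.95 ± 0.36, adjusted p = 0.023, and 0.082 with TMM scaling). It was low throughout: 5 of the 15 tissues had a mean of 20 or more, and the highest was 33.4 in testis. Of the leptin receptors, leprb was at 66.6 ± 11.2 (SD, n = 4) with no call (adjusted p = 0.62). lepra was under background (mean 6.20) and called lower (log2 -1.34 ± 0.48, adjusted p = 0.019), a call lost after subtraction of the negative controls. Without adipose of fish 1 both lowered calls were lost (adjusted p = 0.16 for lepb1 and 0.071 for lepra). apoc1b, an apolipoprotein of circulating lipid particles, varied most among the lipid genes: 10141, 7314, 16661 and 666 in adipose. Its log2 fold change was 2.64 ± 0.63 (adjusted p = 0.00038). Liver (563700) and testis (172000) were far above. apoc1a was at 796, 820, 7532 and 368 and was not called (adjusted p = 0.37).

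Retinoid and steroid receptor genes were raised in part. rxrgaa, a retinoid X receptor gamma gene, was at 413, 513, 366 and 362 in adipose against a median below background elsewhere, and 1 muscle sample (699) lay above. Its log2 fold change was 4.54 ± 0.32 (adjusted p = 4.7e-20). rxrgab was at 245 ± 69.6 (log2 1.74 ± 0.37, adjusted p = 7.3e-05), below muscle (1699), and rxrac at 150 ± 14.4 (log2 1.57 ± 0.24, adjusted p = 5.8e-08; SD, n = 4 each). cyp26b1b, which encodes an enzyme that degrades retinoic acid, was at 227, 435, 314 and 276 (log2 2.52 ± 0.27, adjusted p = 1.9e-12), second after brain (807). Of the 10 retinoid genes 4 were higher and 1 was lower (none with TMM scaling), against 18.9% and 32.3% of all genes, with a median log2 fold change of 0.04. The androgen receptor paralogs were at 289 ± 40.9 (arb1) and 270 ± 63.1 (arb2), with log2 fold changes of 2.00 ± 0.25 (adjusted p = 1.8e-10) and 1.91 ± 0.27 (adjusted p = 1.1e-08). For arb1 adipose ranked 3 of 15 tissues, with testis highest (804). For arb2 adipose ranked first of 15 tissues and testis second (195 ± 35.5), with an adjusted p of 0.4 between them. The estrogen-related receptor gene esrraa was at 378 ± 129, level with muscle (379) and heart (377), and 3.27-fold above the log-scale mean of the other tissues (log2 1.71 ± 0.25, adjusted p = 2.2e-08). Of the 5 steroid and estrogen-related receptor genes arb1, arb2 and esrraa were higher (18.9% of all genes), and with TMM scaling esr1 as well. pgra, a progesterone receptor gene, was at 143 ± 15.2 (log2 1.72 ± 0.34, adjusted p = 1.9e-05), far below testis (2994). In the vitamin D receptor list 3 of 5 genes were lower (2 with TMM scaling; 32.3% of all genes) and 1 was higher, the normalization gene vdrab, whose call was lost without adipose of fish 4 (adjusted p = 0.069). Of the lowered genes, nr1i2, a receptor for foreign compounds and bile acids, was at 37.2, 42.9, 79.9 and 54.5 in adipose against a median of 156 elsewhere (log2 -1.80 ± 0.34, adjusted p = 1.1e-05).

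Growth hormone mobilises fat, and its receptor gene ghr1 was at 3529, 2517, 1295 and 1530 in adipose against a median of 446 elsewhere. Both males lay above both females, which held for 22 of all 220 genes (10%). The edgeR test of females against males did not call ghr1 (adjusted p = 0.16). The log2 fold change was 2.52 ± 0.24 (adjusted p = 2.0e-14), and muscle (1885 ± 946 (SD), n = 6) did not differ from adipose beyond its spread (log2 difference 0.24 ± 0.38 (SE), adjusted p = 0.65). The genes of growth hormone itself, ghrelin and the ghrelin receptors gave no call among 6 genes, as did 106 of all 217. All 6 had adipose means under background, from 5.99 (ghb) to 15.8 (ghsrb), so they were not detected there.

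Some mesenchymal and matrix genes were raised as well. snai2a, a transcription factor of mesenchymal cells, was at 777, 932, 710 and 938 in adipose and at a median of 84.0 elsewhere (log2 3.09 ± 0.37, adjusted p = 5.9e-11). Fin (615), skin (542), gill (411) and spleen (325) were not separated from adipose, with adjusted p of 0.69, 0.41, 0.14 and 0.13. The 3 genes of collagen XII, which binds to the surface of collagen fibrils, were called higher. They were the only ones called among the 7 genes of the collagen and aebp1 list, against 18.9% higher and 32.3% lower over all genes. aebp1 was not called (log2 -0.58 ± 0.5, adjusted p = 0.33). col12a1b led with 911, 1209, 797 and 480 (log2 3.04 ± 0.29, adjusted p = 2.0e-14), ahead of col12a1c (351 ± 59.3; log2 1.53 ± 0.37, adjusted p = 0.00056) and col12a1a (118 ± 60.4; log2 1.21 ± 0.39, adjusted p = 0.0081; SD, n = 4 each). Only col12a1b of these 3 genes had its highest tissue mean in adipose. For col12a1c adipose ranked 6 by tissue mean, with fin highest (1539), and was called below 3 tissues. For col12a1a adipose ranked 8, with fin highest (938.9), and was called below 1 tissue. In both, the adipose mean lay under the arithmetic mean of the other tissues (387.2 for col12a1c and 151.4 for col12a1a). The col12a1a call was lost without adipose of fish 1 (log2 0.85, adjusted p = 0.14) and with the females' adipose alone (0.52, adjusted p = 0.51). The genes of fibrillar collagen I were not called, although col1a1a and col1a1b passed the test with TMM scaling. col1a2 was at 7076 ± 999.5 (SD, n = 4) in adipose and 139700 in fin (log2 0.09 ± 0.47, adjusted p = 0.9). SOX9, a factor of cartilage formation, again split by paralog, with sox9d at 1413, 1241, 477 and 588 (log2 2.31 ± 0.36, adjusted p = 9.8e-08) and sox9c at 24.8, 48.6, 48.1 and 46.5 (log2 -1.90 ± 0.46, adjusted p = 0.00041). Of the adrenomedullin genes, which encode a vasodilator peptide, admb was at 203, 344, 293 and 395 and admc at 100, 102, 347 and 186. Their log2 fold changes were 2.23 ± 0.25 (adjusted p = 1.4e-11) and 1.91 ± 0.24 (adjusted p = 3.8e-10). Adipose was not separated from testis for admb (259; adjusted p = 0.65) or from liver for admc (175; adjusted p = 0.89). adma was below background. fstl3a, a binding protein of activins, was at 298, 218, 250 and 125 (log2 2.60 ± 0.22, adjusted p = 2.8e-16), with gill (271) and skin (214) not separated from it (adjusted p = 0.52 and 0.91).

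The age-at-maturity genes were weak or flat. vgll3a was at 4.51, 14.3, 24.6 and 12.03 normalized counts in adipose, so that 1 sample passed 20, and its log2 fold change of -0.97 ± 0.45 missed the threshold (adjusted p = 0.064). It passed when adipose of fish 3 was left out (-1.36, adjusted p = 0.029) and when hatchery parr were analysed alone (adjusted p = 0.023). Adipose was called below 5 tissues, and liver was highest (62.4). vgll3b was below background (mean 8.67; adjusted p = 0.97), and so were six6a (7.82; adjusted p = 0.12) and six6b (2.86; adjusted p = 0.064). akap11a, which encodes an anchor of protein kinase A, was at 157, 132, 115 and 115, with a log2 fold change of 0.59 ± 0.26 (adjusted p = 0.048). That call was lost when adipose of fish 1 was left out (adjusted p = 0.19) and with the fish as a block (adjusted p = 0.086). It was also lost after subtraction of the negative controls (adjusted p = 0.07), but held with TMM scaling (log2 0.98, adjusted p = 9.1e-05). akap11b was at 100.1 ± 28.8 (SD, n = 4) and not called (log2 -0.34 ± 0.34, adjusted p = 0.39).

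Genes of the Hippo pathway, in which VGLL3 and YAP1 are cofactors of the TEAD factors, were split. Of the 8 Hippo kinase genes 4 were higher and 3 lower (1 with TMM scaling), against 18.9% and 32.3% of all genes, and with the fish as a block 2 were higher and 3 lower. yap1 was at 93.6, 126, 117 and 153 (log2 0.96 ± 0.26, adjusted p = 0.0019), and the kinase gene lats2b at 230, 376, 237 and 338 (log2 1.33 ± 0.18, adjusted p = 6.7e-09), the highest mean of the 15 tissues. The yap1 call was lost with the males' adipose alone. None of the 7 TEAD genes was called, though 6 were lower with the fish as a block. lats2a was higher (536 ± 55.4 (SD), n = 4; log2 0.70 ± 0.18 (SE), adjusted p = 0.00094), while lats1a, lats1b and stk3b were lower. Those calls were lost without adipose of fish 1 for lats1a (adjusted p = 0.089) and lats1b (0.24) and without fish 2 for stk3b (0.099). With the females' adipose alone none of them was called lower, and lats1a was at log2 -0.19 (adjusted p = 0.62). The probes named mst1a and mst1b counted with this list by symbol, but they were far higher in liver than elsewhere. The symbol is shared by a Hippo kinase and a liver-secreted protein, and which of them these probes read was not resolved. Their adipose values were 6.77, 14.8, 207 and 8.02 and 3.38, 9.05, 237 and 8.02, so fish 3 set the calls (log2 1.36 ± 0.40, adjusted p = 0.0041, and 1.95 ± 0.45, adjusted p = 0.00026). Without that sample the log2 fold changes were -1.15 (adjusted p = 0.046) and -1.20 (adjusted p = 0.093). Of the 13 protein kinase A regulatory subunit genes none was higher (prkar1aa, a normalization gene, was with TMM scaling) and 6 were lower (4 after subtraction of the negative controls and 10 with the fish as a block; 32.3% of all genes), led by prkar1ba at 21.4, 43.4, 47.1 and 40.9 in adipose against a median of 198 elsewhere (log2 -2.21 ± 0.36, adjusted p = 4.9e-07).

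Among the lowered genes, those with adipose levels above background are described first. dhrs7, which encodes a short-chain dehydrogenase, was at 34.96, 46.7, 117 and 92.2 in adipose against 84.6, 228 and 1586 (lowest, median and highest) elsewhere. Only 6 of the 72 other samples were at or below the highest adipose value, and adipose was called below 13 tissues (log2 -2.04 ± 0.26, adjusted p = 5.4e-10). kdm5bd, a histone demethylase gene, was at 180, 158, 182 and 176 against a median of 303 (log2 -1.07 ± 0.18, adjusted p = 8.9e-07). ppm1a, a phosphatase gene, was at 500, 404, 504 and 492 against 849 (log2 -1.11 ± 0.21, adjusted p = 9.8e-06). gadd45ba, an early response gene, was at 33.8, 40.0, 23.6 and 18.4 against 83.7 (log2 -1.51 ± 0.42, adjusted p = 0.0020). These 4 genes kept their call under each scaling. Of the 12 most lowered genes with a mean of 20 or more elsewhere, 7 besides klf15d were under background in adipose: six4 (adipose mean 6.10, gill 256), otx2b (2.16, brain 281), lhr (7.38, testis 2188), six3a (2.76, eye 323), cgba (2.29, testis 574), prkar2bb (3.98, brain 378) and prkar2ab (5.16, testis 435). Their folds measure a detected level against background. Of the 17 genes of the gonadotropin axis 8 were called lower (3 with TMM scaling) and none higher, against 32.3% and 18.9% of all genes (median log2 -1.12, against -0.58). After subtraction of the negative controls no gene of that list was called lower.

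Against single tissues, 1476 of 3038 comparisons were called (48.6%; adjusted over all genes and tissues together), 628 of them higher in adipose (20.7%). Heart differed for the fewest genes, 71 or 32.7% (47 higher and 24 lower in adipose), and gill and ovary for the most, 138 or 63.6% each (32 higher and 106 lower against gill, 37 and 101 against ovary). In between, spleen differed for 82 genes (37.8%), fin for 87 (40.1%), pyloric caeca for 89 (41%), skin for 93 (42.9%), kidney for 94 (43.3%), muscle for 101 (46.5%), testis for 106 (48.8%), eye for 109 (50.2%), blood for 113 (52.1%), liver for 124 (57.1%) and brain for 131 (60.4%). Across the 217 genes, Pearson's r of the log2 tissue means with adipose ran from 0.58 (ovary) and 0.62 (brain and blood) to 0.85 (skin) and 0.86 (heart). These correlations share the probes and the probes' own differences in level, and genes are not independent replicates. Blood had the most genes that were higher in adipose, 84. The number of samples differs between tissues, from 2 (fin, ovary) to 8 (eye, kidney), and with it the chance of a call.

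**Figure D4:**
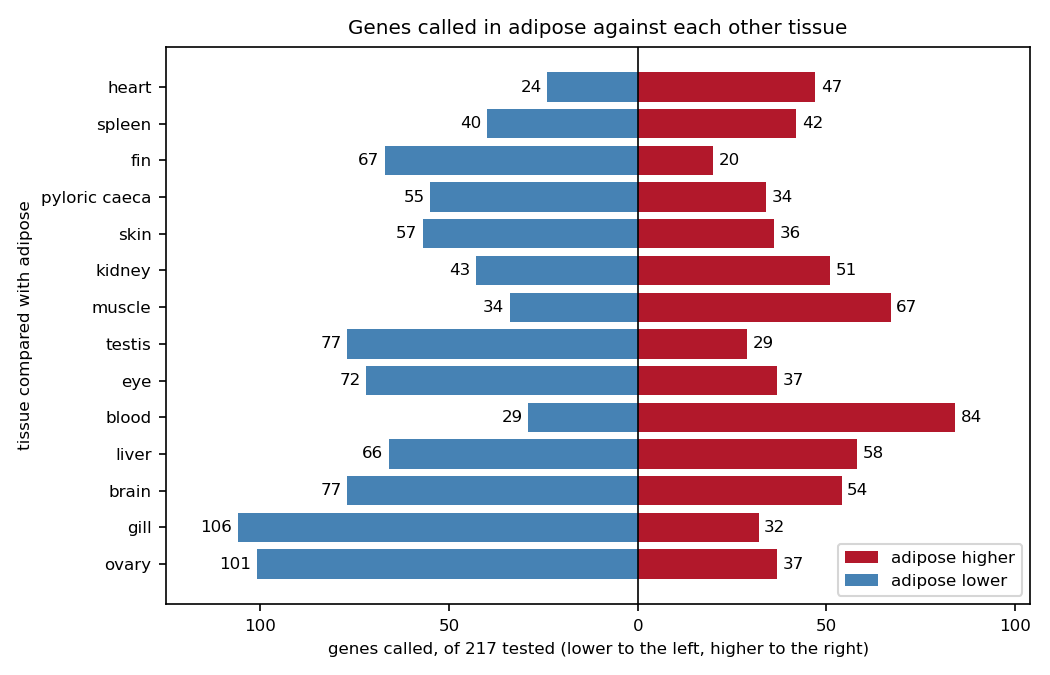
Number of genes called higher (red, to the right) and lower (blue, to the left) in adipose against each of the 14 other tissues (y axis), of 217 tested, ordered by the total. Heart has the fewest calls, 71, and gill and ovary have 138 each.

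The 4 adipose samples differed from each other most in genes that were far higher in another organ. Between the 2 females and the 2 males, 3 of 139 genes with an adipose mean of 20 or more were called, all higher in females (2.16%), and 26 had an unadjusted p under 0.05. snai1, a transcription factor of mesoderm, was at 804 and 730 in female adipose and 37.2 and 30.5 in male adipose (log2 4.51 ± 0.33, adjusted p = 0.0035). The probe named actb was at 750 and 694 in females and 1.13 and 3.81 in males (adjusted p = 0.0035). Its median over the 72 other samples was 7.56, under background, and its mean in ovary was 52430. gnrh1, a gene of gonadotropin-releasing hormone, was at 48.1 and 64.2 in females and 6.77 and 8.10 in males (adjusted p = 0.034). The male values of actb and gnrh1 lay at background, so no fold is given. With 2 fish of each sex, no exact permutation test can pass 0.05, and with either male left out no gene was called.

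These 3 genes belong to 28 that were at least 5 times as high in ovary as in any tissue but adipose and at 100 or more there, a list drawn up after the values had been seen. In 23 of the 28, both females' adipose lay above both males', which held for 65 of all 220 genes (29.5%). The summed level of the 28 genes was 6391 and 6400 in female adipose, 2815 and 3599 in male adipose, and 222300 in ovary. The excess of females over males in adipose was 0.341% to 3.64% of the ovary level, with a median of 1.69%. In the 18 other somatic samples of the 2 females, snai1 was at 2.68 to 158 and actb at 0.89 to 193, with the highest of both in the spleen of fish 4. gnrh1 reached 140 in the gill of fish 3, above both female adipose values. Fish 3 alone stood out in 3 genes that were likewise far higher in liver. spp2, a secreted phosphoprotein, was at 1354 in its adipose and at 9.02, 35.3 and 25.7 in fish 1, 2 and 4. Outside liver and ovary, spp2, mst1a and mst1b reached 71.3, 109 and 94.2 in other tissues of the females, each in the gill of fish 3. The 3 genes stood at 3.23% to 4.90% of the liver level in adipose of fish 3 and at 0.0215% to 0.350% in the other adipose samples. What part ovary or liver RNA, or the fish's own expression, had in these values was not tested.

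These differences bear on the comparison with other tissues. With the 2 males' adipose alone, snai1 was at a log2 fold change of -0.08 (adjusted p = 0.9), spp2 at -0.42 (adjusted p = 0.73) and actb at -3.14 (adjusted p = 0.024), although in all 4 samples they were among the 12 most raised (3.49, 3.53 and 3.82). The male values of actb (1.13 and 3.81) lay under background, as did its median over the other samples, so that fall cannot be told from background. Without fish 3, spp2 was at -0.36 (adjusted p = 0.71). By contrast cebpaa, cebpab, pparaa, pparab, rxrgaa, snai2a, col12a1b, ppargc and apoc1b were called higher in the males' adipose alone and in the females' adipose alone. In the males' samples their log2 fold changes ran from 2.65 to 4.92 and in the females' from 2.63 to 4.57. The females differed widely for apoc1b, at 16661 in fish 3 and 666 in fish 4. In fish 4 its adipose level lay below the mean of that fish's other tissues (log2 -0.51). Without fish 3, apoc1b was still called higher (log2 2.12, adjusted p = 0.015).

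**Figure D5:**
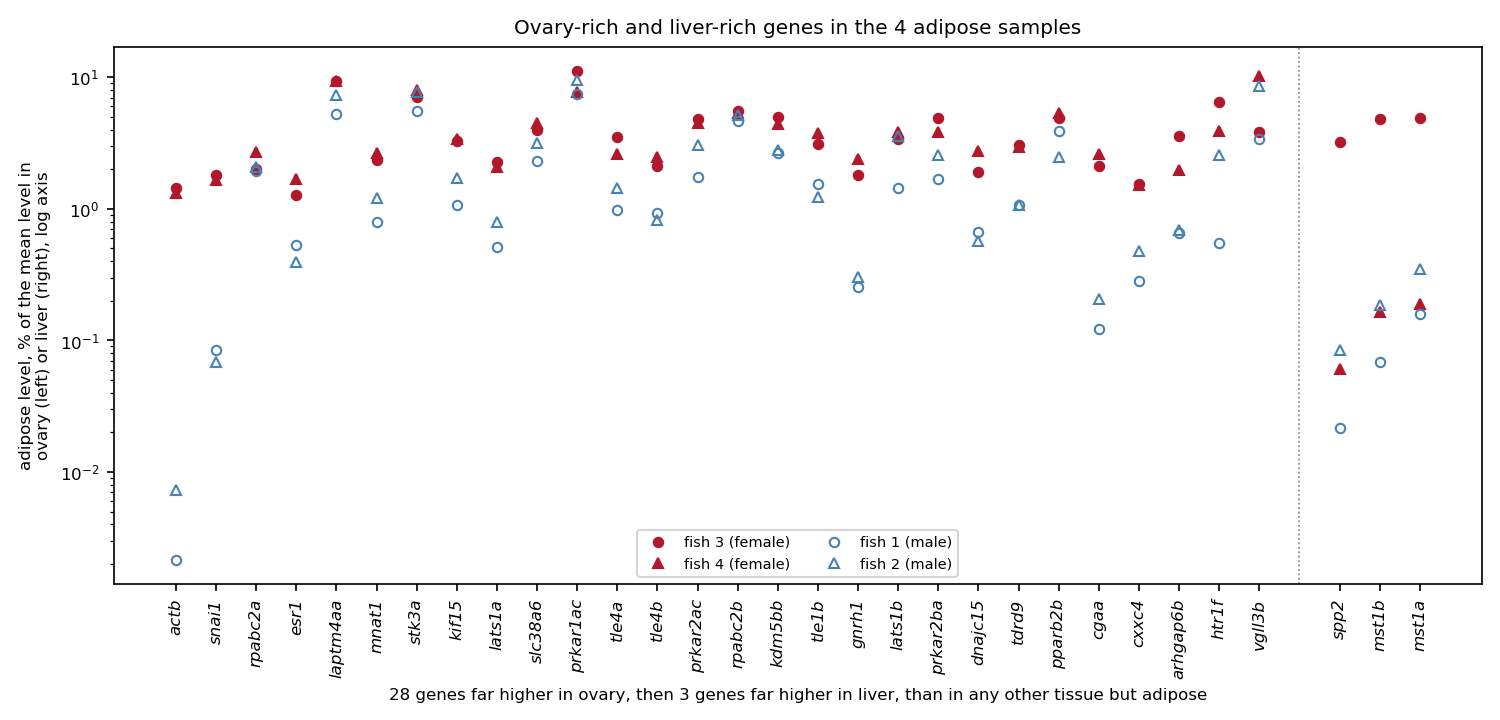
Adipose level as a percentage of the mean ovary level of 28 ovary-rich genes and of the mean liver level of 3 liver-rich genes (y axis, log axis; genes along the x axis), by fish. Females (red) lie above males (blue) for 23 of the 28 ovary-rich genes, and fish 3 lies apart for the 3 liver-rich genes.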

How the data were processed

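Adipose of 4 parr and 72 samples of 14 other tissues were used; 2 of 78 tissue samples (1 muscle, 1 liver) were left out because their normalization factor was above 3.0, as in the study's methods. The deposited raw counts were made by the authors on the nCounter system from equal RNA inputs, with 220 gene probes, 8 negative and 6 positive controls. The authors' deposited normalized counts, a signal table, are the raw count times a factor from the geometric mean of ef1ac, prkar1aa, rps20, rxrbaa, vdraa and vdrab, without background subtraction (largest difference from that product 0.00942%); values under 1 are listed as 1. That table covered 211 genes. For the other 9, the housekeeping genes with actb, gapdh, ef1ac and rps20 among them, the raw count was multiplied by the same factor here, without the floor of 1. The reference genes were chosen by the authors on these samples, and for some paralogs they could not design specific probes. Names are the panel's; 169 of 220 probes matched a RefSeq gene by accession. Sequences were not used here.

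Raw counts of genes with a mean of 20 or more in at least 1 tissue were fitted with edgeR 4.0.16 (quasi-likelihood F test; 6-gene factor as library size; tissue as the only term). The contrast was adipose minus the unweighted mean of the 14 other tissue coefficients, which are on the log scale, or minus 1 tissue. Sex was tested within adipose. P-values were Benjamini-Hochberg adjusted, over genes and tissues together for single tissues; the threshold was 0.05. A second figure after ± is the SE for log2 values and the SD for levels. No replicate pair of a group differed by as little as sampling noise (lowest chi-square per degree of freedom 4.29). Same-numbered tissues came from the same fish: residuals correlated by 0.105 on average over 317 pairs within fish and by -0.0139 over 2349 pairs between fish. The adipose samples were run on 3 cartridges; those of fish 2 and 3 shared 1, and those of fish 3 and 4 were run apart from the other tissues of their fish. Alternatives were limma 3.58.1, DESeq2 1.42.0, other scalings, filters, blocks and sample sets. The fits were tested on simulated data.

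Named genes were the 12 largest rises with an adipose mean of 20 or more, the 12 largest falls with a mean of 20 or more elsewhere, the age-at-maturity, lipid and reference genes, and up to 4 members of each other list. The tissue, the lists and the rule were chosen with earlier results of these data known. Named after their values were seen were lats1b, lats2a, stk3b, fstl3a, pgra, esr1, fshr, gnrh1, col1a1a, col1a1b, ppm1a, kdm5bd, foxo1c, sox9a, mc4ra, mc4rc, dlk1a and dlk1b. P-values measure the spread between samples, and tissues of 1 fish are treated as independent. The result of 1 gene list is not reported here.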

Additional observations from a re-analysis of the deposited data

Results flagged for a closer look

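In 17 of 90 named genes with at least 1 adipose value of 20 or more, 1 of the 4 adipose samples lay apart from the others by Dixon's criterion. Chance alone gives about 1 in 20 for values with a normal spread, but the 17 of 90 cannot be weighed against that share. A gene could enter through the outlying value itself, as klf15d, pparga and arhgap6d did through fish 3. The raised calls by which spp2, mst1a and mst1b were named were also set by fish 3. Genes of 1 library are not independent either. Fish 3 held 8 of the 17, fish 1 held 7, fish 4 held 2 and fish 2 none. Fish 3 was highest for spp2 (1354 normalized counts; 9.02 to 35.3 in the others), apoc1a (7532; 368 to 820), mst1b (237; 3.38 to 9.05), mst1a (207; 6.77 to 14.8), pparga (40.0; 1.00 to 2.41), arhgap6d (26.6; 12.03 to 13.3) and klf15d (22.5; 3.33 to 4.01), and lowest for aesb (404; 549 to 576). Of these genes, spp2, mst1a and mst1b were at least 5 times as high in liver as in any other tissue but adipose, and pparga was highest in pyloric caeca. Fish 1, the library with low positive controls, was highest for wwtr1a (456; 284 to 308), arhgap6a (427; 288 to 304) and cadm2bb (58.6; 18.4 to 20.5), and lowest for cebpda (1424; 1691 to 1699), prkar1ab (275; 561 to 576), prkar2ad (57.5; 149 to 154) and sox9c (24.8; 46.5 to 48.6). Fish 4 was highest for rtn1 (425; 176 to 191) and egr1b (238; 107 to 120). The part of the library or of other tissue in these values was not tested.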

How the results depend on the processing

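The 41 raised genes were stable in number (32 to 50 over all alternatives) and the 70 lowered genes were not. Lowered genes numbered 39 with TMM scaling, 42 with 4 reference genes, 45 with DESeq2's own size factors, 25 after subtraction of the negative controls, 36 at a threshold of 0.01 and 17 with the females' adipose alone, which gave 55 calls in all. With hatchery parr alone, without wild fish or blood, 151 genes were called, 46 higher and 105 lower. Of the 111 calls, 110 remained there in the same direction. The females' and males' adipose alone and the cartridge as a block were chosen after seeing the data. Leaving out 1 sample at a time gave 77 to 116 calls (36 to 42 higher and 37 to 76 lower) and 1321 to 1491 calls against single tissues; the fewest lowered genes followed from leaving out adipose of fish 1. Pairing by fish, as a replicate block without blood, gave 132 calls (38 higher and 94 lower) and 1520 of 2821 against single tissues; of the 111 calls, 105 remained in the same direction. In female against male adipose, DESeq2 called 11 genes and leaving out 1 sample gave 0 to 19. Of 3719 alternative fits of named genes, 3417 kept the side of the threshold, 205 lost the call and 85 gained one. Genes called in neither fit counted among the 3417 even where their sign changed. An example is apoc1a, at log2 0.66 with all samples and -1.18 without adipose of fish 3. In 12 fits the sign turned for a gene that was called in the main or the alternative fit. Those were actb (-3.14), snai1 (-0.08), spp2 (-0.42), mst1b (-1.29) and mst1a (-1.01) in the males' adipose alone; spp2 (-0.36), mst1b (-1.20) and mst1a (-1.15) without adipose of fish 3; mst1a with limma (-0.03) and with limma and a random fish block (-0.05); and vgll3b (2.00) and myf5a (1.86) after subtraction of the negative controls. Apart from the samples left out and the background subtracted, the cause was not tested. Levels near 20 normalized counts cannot be told from background.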

Other observations

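Further genes that passed the test in adipose belonged to none of the gene groups above. foxo1c, a transcription factor gene of the insulin pathway, was at 258, 380, 378 and 395 normalized counts in adipose and at a median of 120 elsewhere (log2 1.60 ± 0.24 (SE), adjusted p = 3.2e-08 by edgeR), second after testis (512). Of the 6 genes named arhgap6 on the panel, which encode GTPase-activating proteins, arhgap6a (330 ± 65.6), arhgap6c (389 ± 63.1) and arhgap6e (30.05 ± 18.2; SD, n = 4 each) were higher, against 18.9% of all genes. The arhgap6f probe, which was not called, matched the RefSeq gene arhgap36. The arhgap6e call was lost without adipose of fish 2 (log2 0.66, adjusted p = 0.14). arhgap6d was lower at 16.1 ± 7.04 (SD, n = 4), under background, a call lost after subtraction of the negative controls. The melanocortin receptor genes mc4ra and mc4rc, known for appetite control in the brain, were called lower but had adipose means of 3.96 and 5.56, under background. So did the probes named dlk1a and dlk1b (4.58 and 3.51). DLK1 is a preadipocyte factor in mice, but the dlk1b probe matched the RefSeq gene dlk2. All 4 kdm5b genes were lower (log2 -1.07 to -0.65), but with TMM scaling kdm5bd alone was called. Smaller lists were counted beside 18.9% higher and 32.3% lower over all genes. Of the 6 early response genes 4 were lower (1 with TMM scaling), and of the 8 Groucho corepressor genes 2 were lower (1 with TMM scaling). Of the 9 genes counted as housekeeping 4 were lower (3 with TMM scaling) and 1, actb, was higher. In the list of 9 regulators of cartilage and bone 3 were higher (sox9a, sox9d and spp2) and 2 lower. Lower with this scaling but not called after subtraction of the negative controls were 2 of 2 foxp3 genes, 1 of 3 cadm2 genes and 1 of 3 neighbours of a chromosome 9 locus, rtn1. In the mesoderm list, snai1 was the 1 of 3 genes called.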
